A study of Homo sapiens with 21 samples.

Results

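The expression of 10 genes of the p53 pathway was followed in SK-MEL-147, a line of human melanoma cells. The genes were chosen by name, with earlier results of these data known: CDKN1A, MDM2, MDM4, ZMAT3, SESN1, CCNG1, TP53INP1, PHLDA3, RRM2B and AEN. All 10 were among the 26475 genes of the deposited table, and all 10 were among the 15062 genes with enough counts to be tested. Poly-A selected RNA had been sequenced from 21 libraries in 7 groups of 3. The groups were cells given GSK-591, an inhibitor of the arginine methyltransferase PRMT5, MS023, an inhibitor of the type I arginine methyltransferases, and JQ-1, which binds BET bromodomains. The others were TP-472, which binds the bromodomains of BRD9 and BRD7, GSK-484, an inhibitor of the arginine deiminase PAD4, UNC0642, an inhibitor of the histone methyltransferases G9a and GLP, and untreated cells. Every group was the same cell line in the same growth medium. The labels state no dose, time or vehicle. They call the replicates biological without saying that each came from its own culture. The p-values therefore reflect the spread among these 3 libraries a group, part of which may be technical. In bulk RNA, fewer cells expressing a gene and less of its RNA per cell cannot be told apart.

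The transcription factor p53 is stabilised by DNA damage and other stress and switches on genes for cell cycle arrest, repair and death. Among its targets is MDM2, whose product is a ubiquitin ligase that marks p53 for destruction, so that p53 limits its own level. MDM4, also called MDMX, is a relative of MDM2 that binds p53 and holds back its activity. High MDM4 is a known feature of many melanomas. Loss of PRMT5 activity is known to change the splicing of MDM4 RNA; the counts used here sum over the isoforms of a gene and cannot show that.

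Library totals ran from 20978182 expected counts (GSK-591 replicate 2) to 78776788 (UNC0642 replicate 2). The melanocyte lineage factor SOX10 had 349 to 603 CPM (counts relative to the library total, scaled between libraries by TMM), but the pigment genes TYR, PMEL, MLANA, DCT and TYRP1 stayed under 1 CPM, at 0.586 CPM or less. AXL, which marks dedifferentiated melanoma, had 1770 to 2065 CPM. Of 3 leukocyte markers, PTPRC and CD3E had at most 0.0748 CPM, while CD68, a lysosomal protein gene, had 118.6 to 163.4 CPM. Of 4 keratinocyte markers, KRT5, KRT14 and KRT1 had at most 0.708 CPM and KRT10 had a median of 29.1 CPM. The summed level of 3 endothelial markers was 0.0344 to 0.98 CPM and that of 4 fibroblast markers 6.45 to 14.9 CPM. The untreated libraries differed from the treated ones in their trend with base composition. Per 10 percentage points of transcript GC content, log2 CPM had a slope that was -0.0405 to 0.132 in the treated and -0.188 to -0.102 in the untreated libraries. Comparisons with untreated cells were therefore set beside a fit with the GC trend of each library removed, and beside one that also took the other treated groups as the reference (without JQ-1, except for JQ-1 itself). A change held in all 3 fits where it was called in the same direction in each. The third fit compares a compound with other compounds, so a change that several compounds share can fail it. The comparison of GSK-591 with MS023 sets no untreated library against either group. The untreated libraries still enter the shared scaling and the estimate of spread.

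The promoters that carry a match to the p53 binding sequence are shown first, since the genes are described as p53 targets. RefSeq promoters on GRCh38.p14 were at hand for 7 of the 10 genes, as 14 windows of 250 bases before a transcript start. They were searched for the p53 consensus site, a pair of adjacent 10-base half-sites that read the same on both strands, allowing up to 3 mismatches in 20 bases and keeping the C and G of each core. A window with up to 3 mismatches was found among 0.914% of 35116 RefSeq promoters, with up to 2 among 0.242%, and an exact half-site among 5.57%. Of the 7 genes, 3 had a match. Each line gives the last 150 bases before the start, 5′ to 3′, with the 20 matching bases in capitals.
MDM2, chr12:68808867-68809016, plus strand, 2 mismatches: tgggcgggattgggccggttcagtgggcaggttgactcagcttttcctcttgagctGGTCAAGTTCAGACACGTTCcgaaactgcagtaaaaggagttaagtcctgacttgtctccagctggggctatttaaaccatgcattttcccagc
AEN, chr15:88621190-88621339, plus strand, 2 mismatches: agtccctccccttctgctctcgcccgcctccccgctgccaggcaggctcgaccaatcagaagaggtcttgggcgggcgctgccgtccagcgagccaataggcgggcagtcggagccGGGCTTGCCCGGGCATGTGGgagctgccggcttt
SESN1, chr6:109008989-109009138, minus strand, 3 mismatches: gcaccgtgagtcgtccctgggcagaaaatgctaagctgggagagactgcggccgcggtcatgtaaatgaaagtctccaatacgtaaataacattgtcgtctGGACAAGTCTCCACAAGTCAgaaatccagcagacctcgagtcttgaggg

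The MDM2 window lies before an internal start, at its second promoter, which is known for its response to p53; a second RefSeq start nearby shares the same match. The AEN and SESN1 windows each hold 1 exact half-site. No window of CDKN1A, MDM4, ZMAT3 or CCNG1 held a match within these bases. A match is a description of the letters and not a measured binding site.

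GSK-591 and MS023 inhibit different classes of arginine methyltransferase, and the direct comparison asked whether the 10 genes stood at different levels under the 2 compounds. Of the 10 genes, 6 were higher with GSK-591 than with MS023 and 0 were lower at a Benjamini-Hochberg adjusted p under 0.05 in edgeR's quasi-likelihood test, which is what is meant by called. They were MDM2, MDM4, ZMAT3, SESN1, CCNG1 and RRM2B. At an unadjusted p under 0.05 in edgeR, 8 were higher and 0 lower, and DESeq2 called 7 higher and 0 lower. Over all genes tested, 5.43% were called higher and 4.46% lower. Since the 10 genes were chosen with earlier results of these data known, such shares are a description and not a test of the set. With the GC trend removed, 7 of the 10 were called higher, AEN being the seventh, against 4.91% of all genes. The median log2 fold change of the 10 genes was 0.22, against 0.00 over all genes. The GC slopes of the 2 groups overlapped, at 0.0144 to 0.0709 with GSK-591 and 0.0412 to 0.132 with MS023. Over all genes the Spearman correlation of log2 fold change with GC content was -0.243. Over the 10 genes it was -0.419, both as fitted and with the GC trend removed. All 6 genes called as fitted were among the 7 with transcripts of 39.5 to 43.2% GC. The 3 genes of 55.5 to 61.3% GC, CDKN1A, PHLDA3 and AEN, were not called as fitted. Whether GC content has a part in that split was not tested.

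MDM2 and MDM4 both restrain p53. MDM2 (chromosome 12, 68808176 to 68850686, GRCh38) had 80.4, 86.6 and 85.8 CPM with GSK-591, against 68.9, 68.4 and 72.1 CPM with MS023. The groups did not overlap, and MDM2 was higher by a log2 fold change of 0.27 (SE 0.045, edgeR adjusted p = 0.000609). MDM4 (chromosome 1, 204516379 to 204558120) had 116.6, 124.6 and 120.3 CPM with GSK-591, against 95.8, 101.1 and 100.5 CPM with MS023. It was higher by 0.28 (SE 0.044, edgeR adjusted p = 0.000285), again without overlap. The ratio of MDM2 to MDM4 counts overlapped between the groups, at 0.689, 0.695 and 0.713 with GSK-591 and 0.72, 0.676 and 0.717 with MS023. Its log2 difference was -0.01 (two-sided exact permutation p = 0.8, n = 3 per group, where 0.1 is the smallest p this design allows).

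Genes of arrest and stress defence followed. ZMAT3, an RNA-binding zinc finger protein that acts in p53-dependent tumour suppression, had 125.2, 128.6 and 124.7 CPM with GSK-591, against 102.1, 97.9 and 103.4 CPM with MS023. Its log2 fold change of 0.32 (SE 0.044, edgeR adjusted p = 8.18e-05) had the smallest p of the 10. SESN1, a sestrin that restrains mTORC1 and oxidative damage, had 18.4, 17.3 and 17.0 CPM with GSK-591 and 13.9, 13.1 and 15.2 CPM with MS023 (log2 fold change 0.32, SE 0.07, edgeR adjusted p = 0.00541). Every GSK-591 library was above every MS023 library for both genes. CCNG1, cyclin G1, which brings the phosphatase PP2A to MDM2, had 241.2, 247.9 and 250.8 CPM with GSK-591 and 211.9, 212.7 and 225.7 CPM with MS023 (0.19, SE 0.044, edgeR adjusted p = 0.00875). RRM2B, the p53-induced subunit of ribonucleotide reductase that supplies nucleotides for repair, had 68.2, 72.6 and 64.1 CPM with GSK-591 and 55.5, 54.9 and 62.2 CPM with MS023 (0.24, SE 0.061, edgeR adjusted p = 0.0131). The RRM2B groups did not overlap, but its call was lost without GSK-591 replicate 2, MS023 replicate 1 or MS023 replicate 2, at log2 fold changes of 0.2, 0.22 and 0.21. The calls of the other 5 genes held under each of 14 alternatives, with log2 fold changes of 0.23 to 0.3 for MDM2 and for MDM4, 0.27 to 0.33 for ZMAT3, 0.27 to 0.38 for SESN1 and 0.14 to 0.21 for CCNG1.

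The remaining 4 genes did not pass. CDKN1A, which encodes the cell cycle inhibitor p21 and is the best known p53 target, had 430.8, 422.7 and 423.4 CPM with GSK-591 and 416.2, 430.6 and 410.6 CPM with MS023. The groups overlapped, and the log2 difference was 0.02 with a 95% interval of -0.06 to 0.1. PHLDA3, a pleckstrin homology protein that competes with AKT for membrane lipids, had 92.4, 90.0 and 83.5 CPM with GSK-591 and 87.6, 99.5 and 89.3 CPM with MS023 (-0.06, interval -0.19 to 0.08). TP53INP1, which promotes p53 phosphorylation and autophagy, had 48.4, 44.9 and 47.0 CPM with GSK-591, against 43.3, 38.6 and 42.6 CPM with MS023. Its groups did not overlap, and the difference of 0.18 (interval 0.06 to 0.3) missed the threshold in edgeR (adjusted p = 0.0594) but was called by DESeq2. AEN, an exonuclease that promotes apoptosis, had 71.7, 74.1 and 71.9 CPM with GSK-591 and 68.4, 67.8 and 67.6 CPM with MS023. The AEN groups did not overlap either, and its difference of 0.09 (interval 0.02 to 0.17) was called only with the GC trend removed (0.12, edgeR adjusted p = 0.0403).

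**Figure D1:**
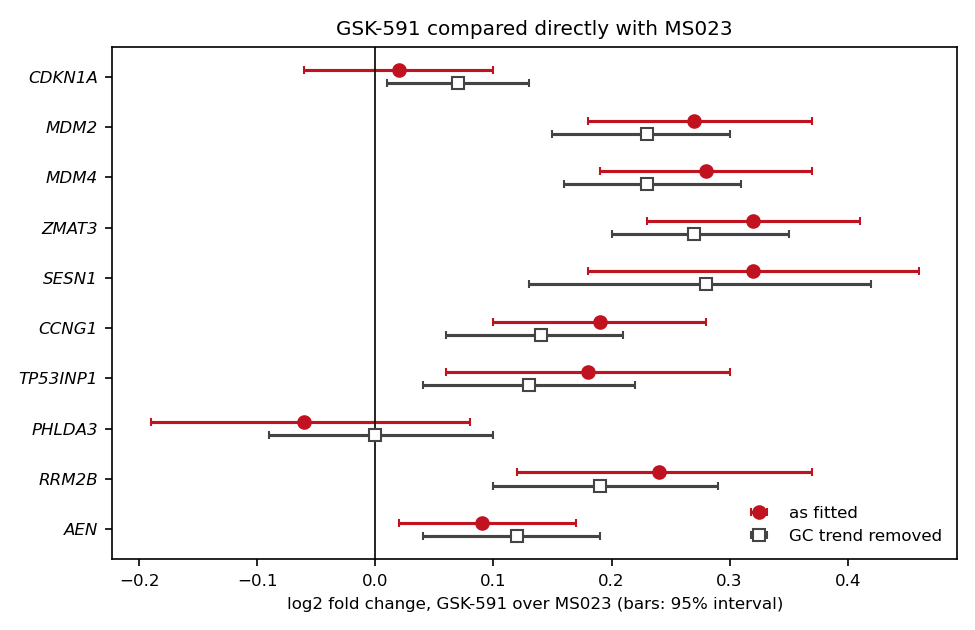
Log2 fold change of each of the 10 genes, GSK-591 over MS023 (3 libraries each), with 95% intervals, as fitted (filled circles) and with the GC trend removed (open squares). MDM2, MDM4, ZMAT3, SESN1, CCNG1 and RRM2B lie between 0.19 and 0.32 as fitted, while CDKN1A (0.02) and PHLDA3 (-0.06) lie near 0.

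Against untreated cells the 10 genes did not move as a block with either compound. With GSK-591, 3 were called higher (CDKN1A, PHLDA3 and AEN) and 2 lower (MDM2 and TP53INP1), against 18.1% and 14.8% of all genes. GC removal gave calls of 4 higher (MDM4, SESN1, CCNG1 and PHLDA3) and 0 lower, against 8.35% and 5.24% of all genes, so that only PHLDA3 was called higher in both fits. SESN1 was then at 0.32 (edgeR adjusted p = 0.00524), against 0.17 (edgeR adjusted p = 0.0559) without GC removal. With MS023, 2 were called higher (CDKN1A and PHLDA3) and 6 lower (MDM2, MDM4, ZMAT3, CCNG1, TP53INP1 and RRM2B), against 22.0% and 20.6% of all genes. The direction went in part with base composition. CDKN1A, PHLDA3 and AEN have transcripts of 55.5 to 61.3% GC, and the other 7 genes have 39.5 to 43.2%. Across the 10 genes the Spearman correlation of log2 fold change with GC content was 0.839 with GSK-591 and 0.76 with MS023, and 0.389 and 0.407 once the GC trend was removed, a description over 10 genes measured in the same libraries.

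**Figure D2:**
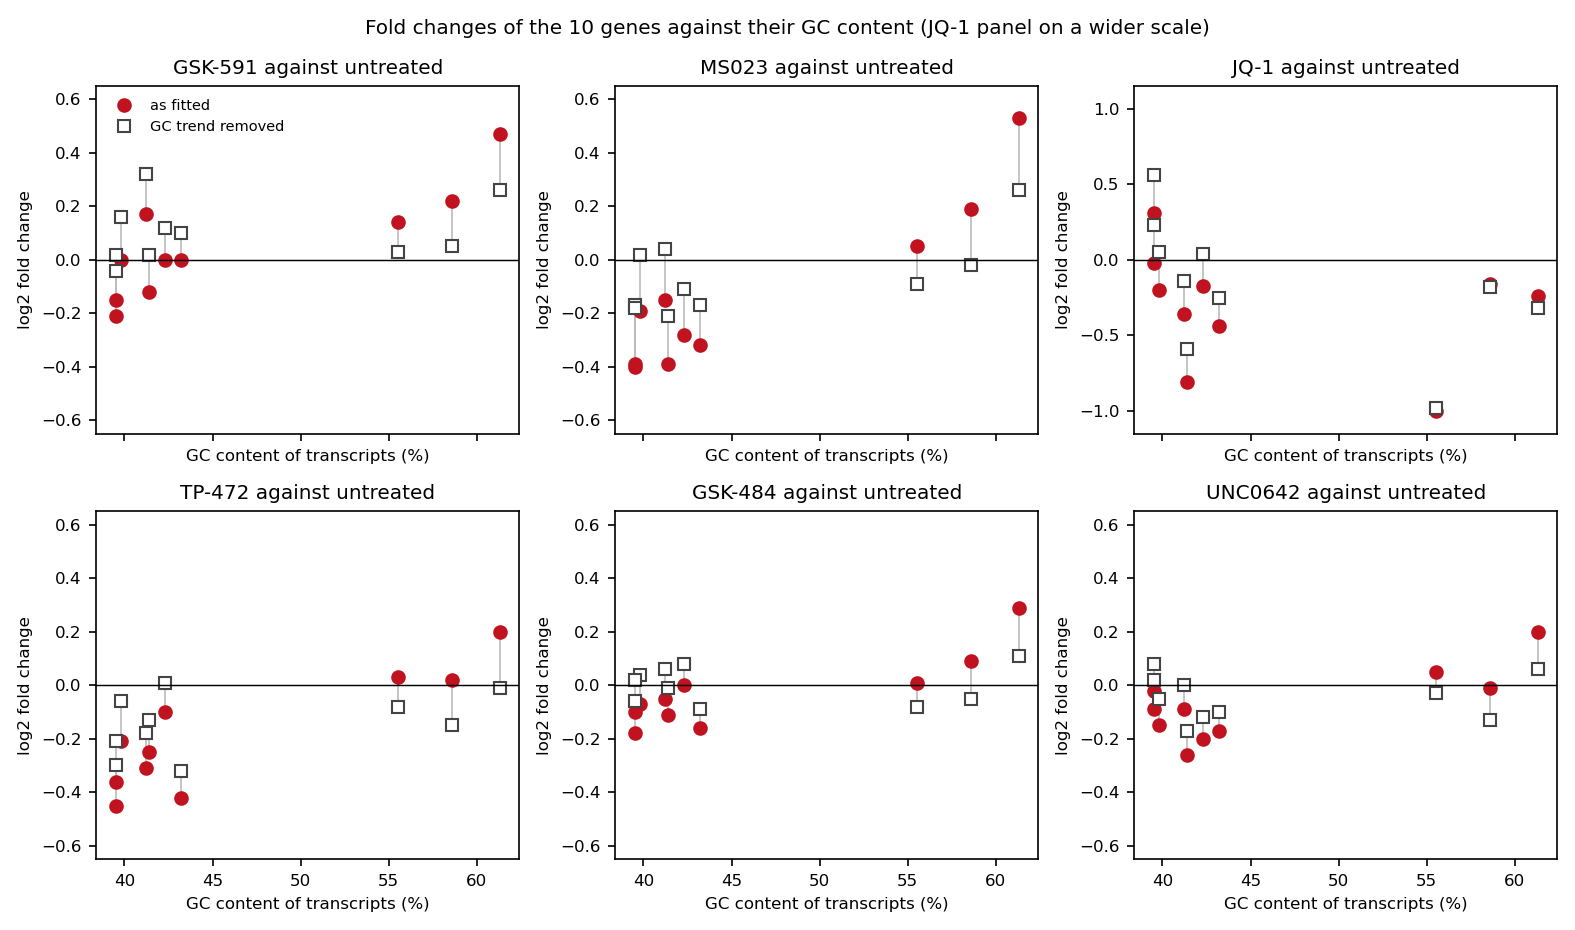
Log2 fold change of the 10 genes against untreated cells (vertical axis) by transcript GC content in percent (horizontal axis), as fitted (filled) and with the GC trend of each library removed (open), 1 panel per compound. With GSK-591 and MS023 the 3 genes above 50% GC lie above 0 and most of the 7 others at or below it as fitted, a slope that flattens once the trend is removed.

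PHLDA3 was the 1 gene of the 10 that held in all 3 fits with GSK-591, where 4.25% of all genes did. It had 92.4, 90.0 and 83.5 CPM with GSK-591 and 87.6, 99.5 and 89.3 CPM with MS023, against 57.0, 66.1 and 69.2 CPM in untreated cells. No library of either compound overlapped the untreated ones. The log2 fold change was 0.47 with GSK-591 (SE 0.066, edgeR adjusted p = 3.31e-05) and 0.53 with MS023 (SE 0.065, edgeR adjusted p = 2.32e-06). With the GC trend removed it was 0.26 for each compound (edgeR adjusted p = 0.00097 with GSK-591 and 0.000517 with MS023). CDKN1A had 430.8, 422.7 and 423.4 CPM with GSK-591 and 416.2, 430.6 and 410.6 CPM with MS023, against 349.8, 363.9 and 385.4 CPM in untreated cells. It was called higher with both, at 0.22 with GSK-591 (SE 0.04, edgeR adjusted p = 0.000295) and 0.19 with MS023 (SE 0.039, edgeR adjusted p = 0.000409). With the GC trend removed neither call held, at 0.05 (edgeR adjusted p = 0.28) with GSK-591 and -0.02 (edgeR adjusted p = 0.744) with MS023.

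With MS023, 5 of the 10 genes held in all 3 fits, against 6.09% of all genes: PHLDA3 was higher, and MDM2, MDM4, TP53INP1 and RRM2B were lower. MDM2 had 68.9, 68.4 and 72.1 CPM with MS023 and 93.4, 87.7 and 92.8 CPM in untreated cells, without overlap (by -0.39 on the log2 scale, SE 0.045, edgeR adjusted p = 1.07e-06, and by -0.21 with the GC trend removed). MDM4 had 95.8, 101.1 and 100.5 CPM with MS023 and 121.1, 120.1 and 119.3 CPM in untreated cells (-0.28, SE 0.043, edgeR adjusted p = 2.69e-05, and -0.11 with the GC trend removed). Both regulators of p53 were thus lower with MS023. With the GC trend removed, MDM4 passed only narrowly (edgeR adjusted p = 0.0407), against 0.000277 for MDM2. With GSK-591, MDM4 was not called (0.00, 95% interval -0.09 to 0.09), but was called higher with the GC trend removed (0.12, edgeR adjusted p = 0.0363). The call of MDM2 with GSK-591 (-0.12, edgeR adjusted p = 0.0486) turned to 0.02 with the GC trend removed. TP53INP1 fell by 0.39 and RRM2B by 0.4 on the log2 scale with MS023 as fitted, and by 0.17 and 0.18 with the GC trend removed. These comparisons of GSK-591 and of MS023 share the same untreated libraries. Relative to the other treated groups with the GC trend removed, 9 of the 10 genes were called higher with GSK-591 by edgeR and 0 lower, also at an unadjusted p under 0.05, TP53INP1 being the exception, against 6.2% and 4.35% of all genes. With MS023 in that fit 1 was higher and 4 were lower, against 8.5% and 5.61% of all genes.

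**Figure D3:**
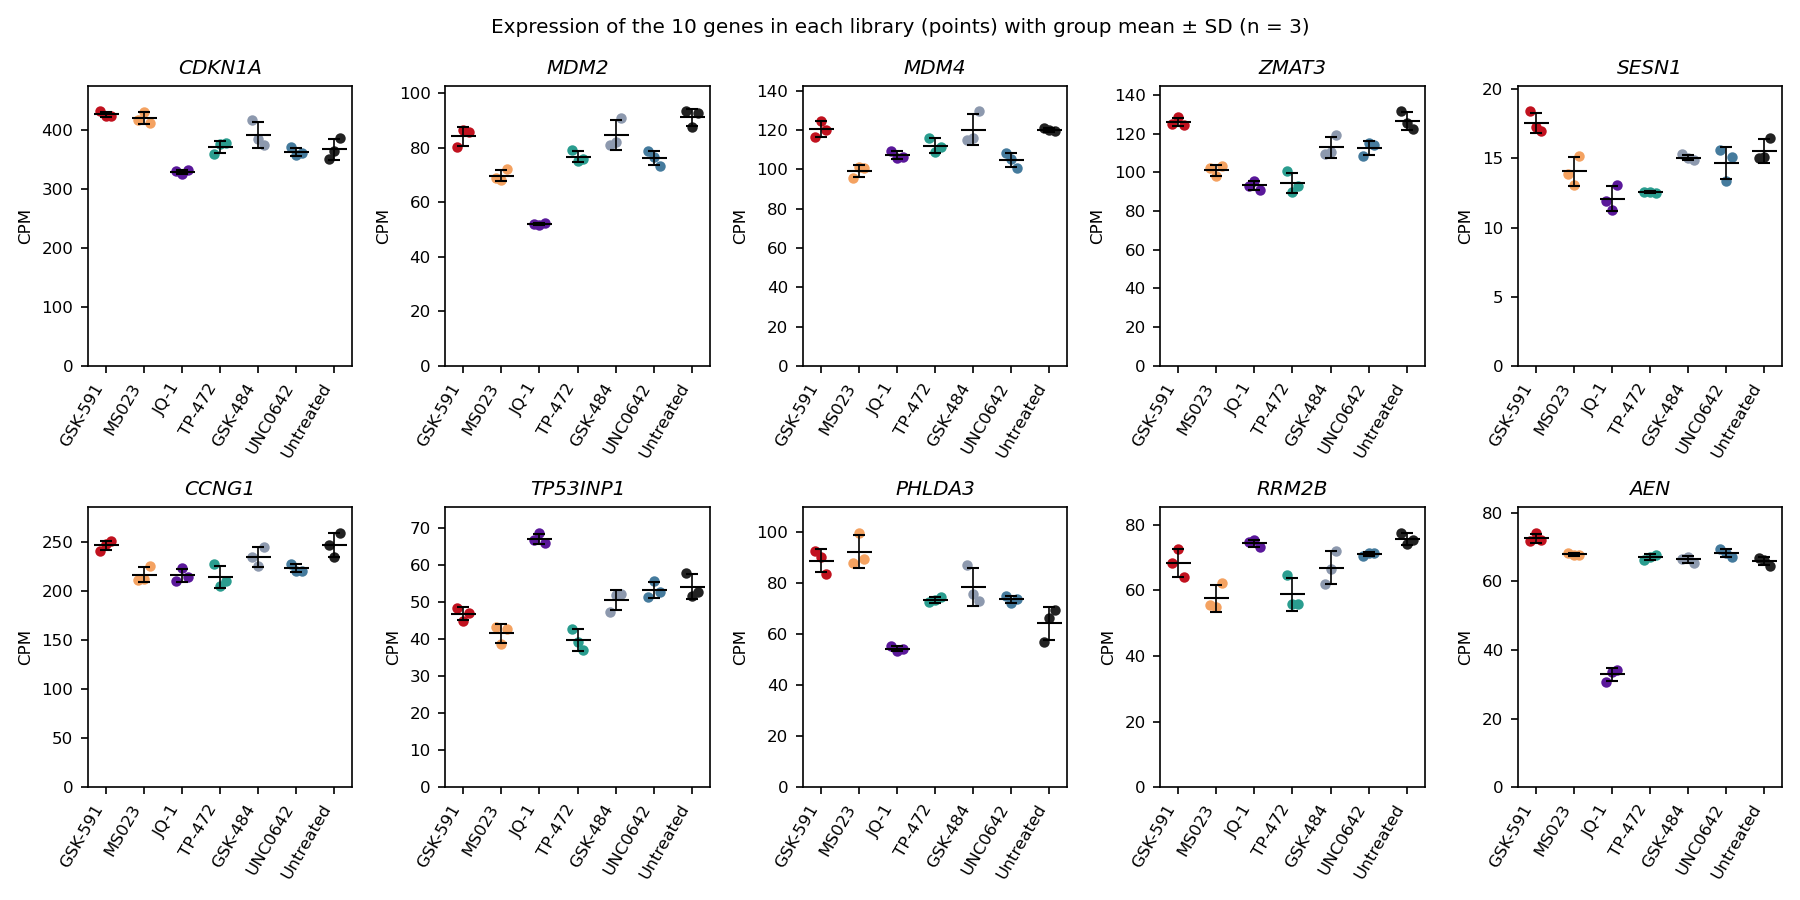
Level of each of the 10 genes in CPM (vertical axis, from 0) in every library, with the group mean and SD (n = 3), for the 6 compounds and untreated cells. AEN and MDM2 are lowest with JQ-1 and TP53INP1 is highest there; PHLDA3 and CDKN1A have their highest means with GSK-591 and MS023.

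The libraries given JQ-1, which binds BET bromodomains, were compared with the untreated ones. Of the 10 genes, 8 were called lower and 1, TP53INP1, higher, against 37.6% and 35.7% of all genes. In all 3 fits 6 held, against 63.9% of all genes: CDKN1A, MDM2, ZMAT3, PHLDA3 and AEN lower and TP53INP1 higher. AEN (chromosome 15, 88621296 to 88632282) had 30.8, 33.7 and 34.2 CPM with JQ-1 and 66.7, 66.3 and 64.5 CPM in untreated cells. That was a log2 fold change of -1.0 (SE 0.039, edgeR adjusted p = 1.84e-16), the largest change of any of the 10 genes under any compound. MDM2 had 52.0, 51.6 and 52.4 CPM with JQ-1 and 93.4, 87.7 and 92.8 CPM in untreated cells (-0.81, SE 0.046, edgeR adjusted p = 1.81e-13). Neither gene overlapped the untreated range, and with the GC trend removed the values were -0.98 for AEN and -0.59 for MDM2.

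MDM4 did not follow MDM2 under JQ-1. It had 109.5, 105.9 and 106.1 CPM with JQ-1 and 121.1, 120.1 and 119.3 CPM in untreated cells (-0.17, SE 0.043, edgeR adjusted p = 0.00164), and 0.04 with the GC trend removed (edgeR adjusted p = 0.293). The ratio of MDM2 to MDM4 counts, which is not scaled to transcript length and serves only to compare libraries, was 0.474, 0.488 and 0.494 with JQ-1 and 0.771, 0.73 and 0.778 in untreated cells. The log2 difference was -0.65, with a two-sided exact permutation p = 0.1, the smallest that 3 against 3 libraries allow, and -0.63 with the GC trend removed. With the 5 other compounds the ratio was 0.676 to 0.729, below the untreated range, by -0.15 (TP-472) to -0.06 (UNC0642) on the log2 scale and likewise at an exact permutation p = 0.1. For UNC0642 the difference with the GC trend removed was -0.05 with overlapping groups (exact permutation p = 0.2), and the other compounds kept p = 0.1.

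**Figure D4:**
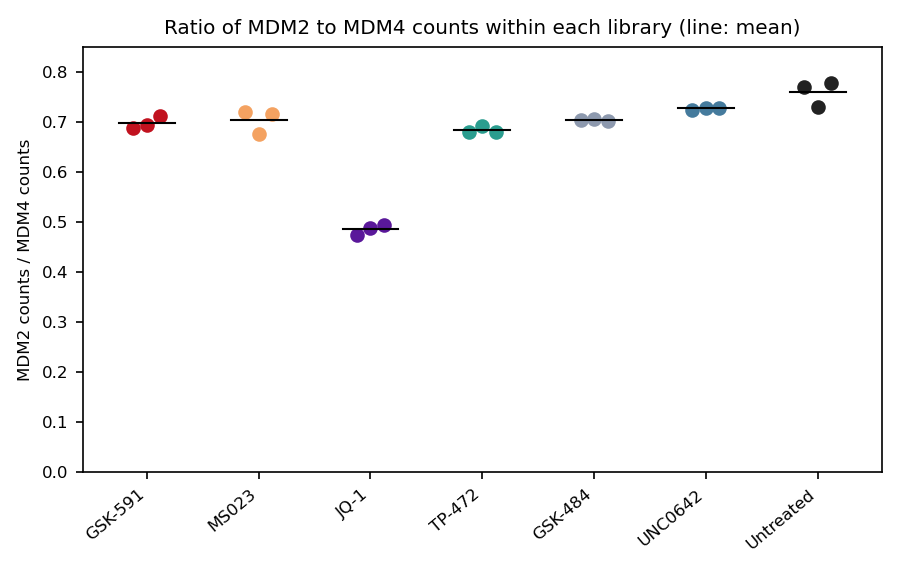
Ratio of MDM2 to MDM4 counts (vertical axis, from 0) in each library by group, with the mean as a line. The 3 JQ-1 libraries lie at 0.474 to 0.494, apart from the untreated libraries at 0.73 to 0.778 and from the other compounds.

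TP53INP1 moved the other way under JQ-1. It had 66.6, 68.6 and 65.9 CPM with JQ-1 and 57.9, 51.6 and 52.8 CPM in untreated cells (higher by 0.31 on the log2 scale, SE 0.057, edgeR adjusted p = 4.06e-05, and by 0.56 with the GC trend removed). ZMAT3 fell by 0.44, SESN1 by 0.36, PHLDA3 by 0.24, CCNG1 by 0.2 and CDKN1A by 0.16 on the log2 scale. The falls of ZMAT3, PHLDA3 and CDKN1A held in all 3 fits, whereas CCNG1 turned to 0.05 and SESN1 to -0.14 (edgeR adjusted p = 0.095) with the GC trend removed. RRM2B had 74.8, 75.2 and 73.2 CPM with JQ-1 and 77.5, 74.1 and 75.3 CPM in untreated cells, which overlapped (-0.02, 95% interval -0.15 to 0.1), but was called higher with the GC trend removed (0.23, edgeR adjusted p = 0.00011). Scaling by total counts moved the median gene under JQ-1 to -0.149, against -0.006 with TMM, and with it 9 of the 10 genes were called lower and 1 higher. Of all genes called, 48.7% were higher with JQ-1 with TMM, 37.3% with total-count scaling and 57.3% with the GC trend removed. GC removal moved the median gene under JQ-1 to 0.093. The Spearman correlation of the 10 genes' log2 fold changes with GC content was -0.45 as fitted and -0.766 with the GC trend removed. Under JQ-1 that correlation was thus not weakened by GC removal.

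TP-472, UNC0642 and GSK-484 are the remaining compounds. The median log2 fold change of the 10 genes was -0.23 with TP-472, as with MS023 (-0.23), -0.09 with UNC0642 and -0.06 with GSK-484. With TP-472, 6 of the 10 genes were called lower and 1 higher (PHLDA3, 0.2, but -0.01 with the GC trend removed), against 14.5% and 17.3% of all genes, and 3 held in all 3 fits against 3.7% of all genes. Those were ZMAT3, TP53INP1 and RRM2B, all lower. ZMAT3 had 100.5, 90.0 and 93.0 CPM with TP-472 and 131.5, 125.3 and 122.6 CPM in untreated cells (-0.42, SE 0.044, edgeR adjusted p = 3.29e-06, and -0.32 with the GC trend removed). TP53INP1 had 42.8, 39.1 and 37.0 CPM with TP-472 and 57.9, 51.6 and 52.8 CPM in untreated cells (-0.45, SE 0.058, edgeR adjusted p = 1.98e-05, and -0.3 with the GC trend removed). RRM2B had 64.6, 56.0 and 55.8 CPM with TP-472 and 77.5, 74.1 and 75.3 CPM in untreated cells (-0.36, SE 0.059, edgeR adjusted p = 0.000159). No TP-472 library reached the untreated range for any of the 3. SESN1, CCNG1 and MDM2 were also called lower (-0.31, -0.21 and -0.25), each only in part of the fits. With UNC0642, 4 genes were called lower (MDM2, MDM4, ZMAT3 and CCNG1) and 1 higher (PHLDA3), against 7.54% and 8.71% of all genes. MDM2 alone held in all 3 fits, where 1.72% of all genes did, at 78.7, 76.7 and 73.5 CPM with UNC0642 and 93.4, 87.7 and 92.8 CPM in untreated cells (-0.26, SE 0.044, edgeR adjusted p = 0.00103). With GSK-484, 2 were called lower (ZMAT3 and RRM2B) and 1 higher (PHLDA3), against 7.66% and 11.4% of all genes. None held in all 3 fits, where 0.00664% of all genes did, and with the GC trend removed edgeR called 0 of the 10, against 0.438% of all genes higher and 0.312% lower; at an unadjusted p under 0.05 that fit had 2 higher and 2 lower. DESeq2, without GC removal, called 1 higher and 2 lower.

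Ordered by mean level, MDM2 was lowest with JQ-1 (52.0 CPM), then MS023 (69.8), UNC0642 (76.3), TP-472 (76.7), GSK-591 (84.2) and GSK-484 (84.8), and highest in untreated cells (91.3). Neighbours in that order overlapped except JQ-1 and MS023, MS023 and UNC0642, and TP-472 and GSK-591. MDM4 was lowest with MS023 (99.1 CPM), then UNC0642 (104.8), JQ-1 (107.2) and TP-472 (112.1), and highest in GSK-484, untreated and GSK-591 cells (120.2, 120.2 and 120.5); of neighbours, only TP-472 and untreated cells did not overlap. CDKN1A ranged from 425.6 CPM with GSK-591 to 328.2 with JQ-1, and among neighbours only UNC0642 (362.6) and JQ-1 stood apart. PHLDA3 was highest with MS023 (92.1) and lowest with JQ-1 (54.2); TP-472 (73.3) and JQ-1, the neighbours of untreated cells (64.1) on either side, each stood apart from them. Across the 6 compounds PHLDA3 was called higher in 5 and lower in 1, MDM2 lower in 5 and ZMAT3 lower in 5, all against the same untreated libraries. Of those, the higher calls of PHLDA3 held in all 3 fits with GSK-591 and MS023, the lower calls of MDM2 with MS023, JQ-1 and UNC0642, and those of ZMAT3 with JQ-1 and TP-472.

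A wider set of p53 targets was listed by role: arrest and repair, death and survival, and metabolism, secretion and other roles, 62 genes tested in all. In GSK-591 against MS023, 7 of the 62 were higher and 2 lower, with a median of 0.01, where 5.43% of all genes were higher and 4.46% lower. The 7 included TIGAR, a regulator of glycolysis (33.8 ± 2.7 CPM with GSK-591 and 26.9 ± 1.55 with MS023, SD, n = 3; log2 fold change 0.33, edgeR adjusted p = 0.0018), and CASP8, an initiator caspase (0.30, edgeR adjusted p = 0.00646). POLH, a translesion polymerase (0.26), ANKRA2 (0.22), PLK2, a stress-responsive kinase (0.20), and PERP, a junction protein linked to apoptosis (0.18), were also higher, as was DDB2. PLTP (-0.20) and CES2 (-0.14) were lower, and neither was called with the GC trend removed, where edgeR called 8 of the 62 higher and 0 lower (12 and 5 at an unadjusted p under 0.05), against 4.91% and 5.27% of all genes. Of 25 tested genes listed as regulators of p53, edgeR and DESeq2 each called 0 in that comparison (median -0.01). At an unadjusted p under 0.05 edgeR had 2 higher and 2 lower. With the GC trend removed, ATR was lower, and TP53INP2, which the list holds as a relative of TP53INP1 by name, was higher. Among 20 genes lowered through p21 and the DREAM complex, 1 was higher, BUB1 (0.19), and 4 were lower with GSK-591 than with MS023. RRM2, the cell cycle subunit of ribonucleotide reductase, had 231.9 ± 2.08 CPM with GSK-591 and 274.5 ± 6.51 CPM with MS023 (log2 fold change -0.24, SE 0.031, edgeR adjusted p = 3.02e-05), a direction opposite to that of RRM2B. The cell cycle phosphatase genes CDC25A (-0.19, edgeR adjusted p = 0.0364) and CDC25C and the transcription factor gene MYBL2 were also lower.

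Against untreated cells, 19 of the 62 were higher and 5 lower with GSK-591, and 21 and 12 with MS023. Over all genes the shares were 18.1% and 14.8% with GSK-591 and 22.0% and 20.6% with MS023. In all 3 fits those counts were 4 (PLK2, DDB2, MXD4 and BBC3) and 0 with GSK-591, and 5 (MXD4, BBC3, FDXR, GDF15 and PRKAB1) and 1 (E2F7) with MS023, where 4.25% of all genes held with GSK-591 and 6.09% with MS023, both directions together. The counts in all 3 fits are not far from those shares. With the GC trend removed, edgeR called 10 higher and 2 lower with GSK-591, against 8.35% and 5.24% of all genes. With other treated groups as the reference as well, it called 11 higher and 0 lower with GSK-591, against 6.2% and 4.35%. At an unadjusted p under 0.05 that fit had 19 higher and 2 lower with GSK-591. With MS023 that fit called 7 higher and 5 lower, against 8.5% and 5.61% of all genes. As fitted, the higher counts were above the shares of all genes with both compounds. The lower count was below its share with GSK-591 and near it with MS023. The lists were not tested as sets, and the genes below are given for their own values. BBC3, which encodes the death activator PUMA, was higher in all 3 fits with GSK-591 (33.7 ± 1.58 CPM with GSK-591 and 24.9 ± 0.816 CPM in untreated cells, log2 fold change 0.43) and with MS023 (37.2 ± 1.32 CPM, 0.58). With the GC trend removed its values were 0.17 and 0.24. Of the others, DDB2, a damage recognition protein (0.25), held with GSK-591, and the ferredoxin reductase FDXR (0.48) with MS023. GDF15, which also held with MS023, had a mean under 3 CPM both with MS023 and in untreated cells. E2F7 (-0.32), a repressor of the cell cycle, was the gene lower in all 3 fits with MS023. PMAIP1, which encodes NOXA, was called lower with both, at -0.22 with GSK-591 and -0.32 with MS023, and held in all 3 fits with neither.

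With JQ-1 the 62 targets split, with 23 higher, 29 lower and 10 not called, and 22 higher and 22 lower in all 3 fits. Over all genes 35.7% were higher and 37.6% lower with JQ-1, and 63.9% held in all 3 fits. The higher count of the targets was near the share of all genes. Their lower count and the number that held in all 3 fits were somewhat above the matching shares. TP53I3, an oxidoreductase of the apoptotic response (37.9 ± 0.308 CPM with JQ-1 and 12.3 ± 0.93 in untreated cells, log2 fold change 1.62), BBC3 (1.44), ALDH4A1 (1.23) and the damage-inducible gene GADD45A (0.94) were higher. TRIM22 fell to 1.17 ± 0.312 CPM with JQ-1, against 21.5 ± 1.85 CPM in untreated cells (-4.18). The death receptor gene FAS (-2.55), CASP8 (-1.21) and the cytokine gene LIF (-1.19) were lower as well. Of the 25 genes listed as regulators of p53, 11 were higher, among them the corepressor TRIM28 (0.85). Another 10 were lower, among them the ubiquitin ligase RCHY1 (-0.83). The higher count was a little above the share of all genes and the lower count near it. Of the 20 genes lowered through p21 and DREAM, 18 were lower, 1 was higher and 1 was not called with JQ-1 (median -0.54), while CDKN1A itself was called lower. FOXM1, a mitotic transcription factor (-1.4), and CDC25A (-1.36) were among the lower genes, and CDC20 was the higher one (0.46).

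**Figure D5:**
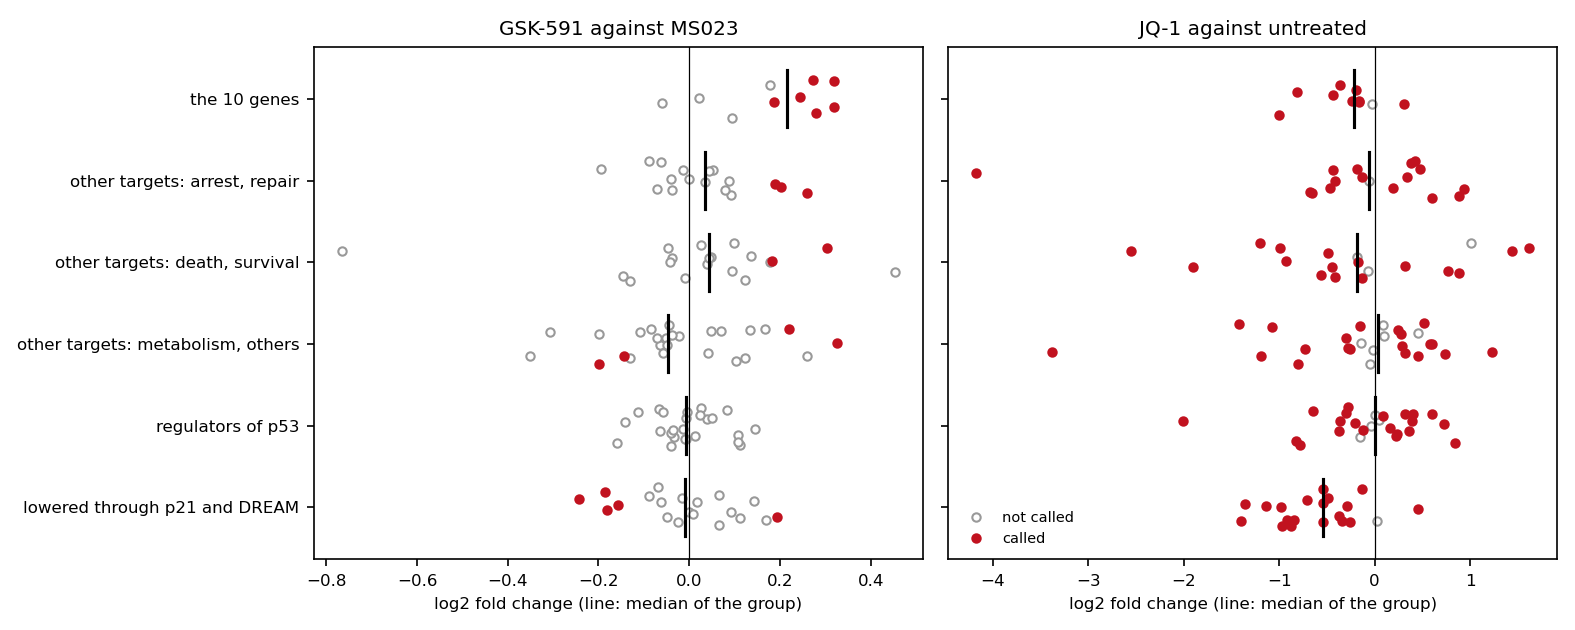
Log2 fold changes (horizontal axis) of the 10 genes and of 5 listed groups of p53 pathway genes, for GSK-591 against MS023 and for JQ-1 against untreated cells on a wider scale; filled points were called and the vertical lines are group medians. The 10 genes have a median of 0.22 with GSK-591 against MS023, while the medians of the 5 listed groups lie between -0.05 and 0.04, and with JQ-1 the group lowered through p21 and DREAM has a median of -0.54.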

How the data were processed

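RNA-seq of poly-A RNA covered 21 SK-MEL-147 libraries. The authors deposited expected counts per gene from RSEM, not scaled between libraries, made with Bowtie2 2.1.0, RSEM 1.2.15 and build hg38 per the submitters' processing notes; no source used here gives the annotation or strand setting. Expected counts were rounded, passed through edgeR 4.0.16 (filterByExpr, minimum count 10, total 15) and scaled by TMM. All 21 libraries entered 1 fit with group as the only term (common coefficient of variation 5.09%), and p-values were Benjamini-Hochberg adjusted over 15062 genes and called under 0.05. GC trends were removed by loess (span 0.3, 4 iterations, log2 CPM with prior count 2) on GENCODE 29 transcript GC content, known for 93.7% of tested genes. Replicate pairs of a group differed by more than sampling noise (chi-square per degree of freedom 3.43 to 56.5, 21 pairs; 0 identical). The fit was tested on simulated data. Of the 10 genes, MDM2 and MDM4 alone had fractional counts, rounded by at most 0.4. MDM2 overlaps the carboxypeptidase M gene and TP53INP1 overlaps NDUFAF6, on the opposite strand, with at most 222 and 519 counts; without a stated strand setting those reads cannot be told apart.

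The 10 genes and the gene lists were chosen with earlier results of these data known. A few genes of the lists are not reported here and were left out of their counts. Named from the lists were, for the GSK-591, MS023 and JQ-1 comparisons, up to 2 genes called higher and 2 called lower with the greatest changes, of at least 3 CPM in the higher group; the text gives part of these. Genes named in full for a count of 7 or fewer were added after their values were seen. Alternatives were DESeq2 1.42.0, RLE and total-count scaling, no filter, a replicate block, 2 groups fitted alone, the GC trend, other references and leaving out each replicate. Sequences are from RefSeq. Computations used R 4.3.3 and Python 3.11.15.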

Additional observations from a re-analysis of the deposited data

Results flagged for a closer look

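In the direct comparison by edgeR, 6 of the 10 genes differed between the cells given GSK-591 and the cells given MS023. Over all genes tested, 5.43% were called higher and 4.46% lower. The 10 genes had been chosen with earlier results of these data known. Each of the 6 was higher in every GSK-591 library than in any MS023 library. The log2 differences were 0.27 for MDM2, 0.28 for MDM4, 0.32 for ZMAT3, 0.32 for SESN1, 0.19 for CCNG1 and 0.24 for RRM2B. The RRM2B call was lost without GSK-591 replicate 2, MS023 replicate 1 or MS023 replicate 2. Both compounds had been compared with the same untreated libraries. The direct difference does not involve those libraries, but they enter the shared scaling and the estimate of spread behind its p-values.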

How the results depend on the processing

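Over 7 comparisons, 1100 values of the 10 genes under an alternative kept direction and call in 862 cases; 82 changed sign with no call either way, 78 lost and 29 gained a call, and 49 reversed. In GSK-591 against MS023 no value reversed, and the count of 6 was 5 to 6 with 1 replicate left out. Total-count and RLE scaling, DESeq2 and no filter reversed no value. Taking other treated groups as the reference changes the comparison and not only the processing, and its values are among the counts above. The cause of the changes below was not tested.

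The number of the 10 genes called was 5 with GSK-591, 9 with other treated groups as reference and the GC trend removed, and 3 to 6 with 1 replicate left out (3 without untreated replicate 1). It was 8 with MS023, 5 with that reference and GC removal, 5 with the GC trend removed and the replicate block, and 8 to 9 with 1 replicate left out. GSK-484 gave 3, but 0 with the 2 groups alone, with the GC trend removed, with it and the block, and with other references with or without GC removal, and 1 to 5 with 1 replicate left out (1 without GSK-484 replicate 1 or untreated replicate 1, 5 without GSK-484 replicate 3). UNC0642 gave 5, 2 with the GC trend removed with or without the block, and 2 to 5 with 1 replicate left out (2 without untreated replicate 1, 3 without any single UNC0642 replicate). The log2 difference in MDM2 to MDM4 ratio between GSK-591 and MS023 was -0.01 and ran from -0.039 to 0.006 with 1 replicate left out.

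Reversed log2 fold changes were as follows. With the GC trend removed, alike with and without the replicate block, MDM2 (0.02) and CCNG1 (0.16) reversed with GSK-591, CDKN1A (-0.02) and CCNG1 (0.02) with MS023, MDM4 (0.04), CCNG1 (0.05) and RRM2B (0.23) with JQ-1, and CDKN1A (-0.15) and PHLDA3 (-0.01) with TP-472. With other treated groups as reference, and then with the GC trend removed too, MDM2 was 0.13 and 0.15, ZMAT3 0.26 and 0.27, CCNG1 0.15 and 0.17 and TP53INP1 0.03 and 0.05 with GSK-591, and RRM2B 0.12 in the second. In the same pair of settings RRM2B was 0.21 and 0.31 with JQ-1, with MDM4 at 0.05 and CCNG1 at 0.02 in the second. TP-472 had CDKN1A at -0.11 and -0.11 and PHLDA3 at -0.18 and -0.18. GSK-484 had ZMAT3 at 0.07 and 0.03, PHLDA3 at -0.05 and -0.03 and RRM2B at 0.07 and 0.03. UNC0642 had ZMAT3 at 0.06 and 0.02, TP53INP1 at 0.26 and 0.2, PHLDA3 at -0.17 and -0.1 and RRM2B at 0.18 and 0.12.

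Replicate numbers did not pair the samples: of 21 pairs of like number, 1 had a correlation of deviations over 0.1 (range -0.125 to 0.115), and 4 of 21 libraries correlated best with their own number. With the replicate block the counts were 5 (GSK-591), 8 (MS023), 9 (JQ-1), 7 (TP-472), 2 (GSK-484), 4 (UNC0642) and 6 (GSK-591 against MS023), and the ratio difference was -0.01 (exact sign-flip p = 0.75).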

Other observations

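Relatives of the 10 genes were listed too, 13 of them tested. In GSK-591 against MS023, 1 was higher, PHLDA1 (789.7 ± 8.94 CPM with GSK-591 and 702.3 ± 22.1 CPM with MS023, SD, n = 3; log2 fold change 0.17, edgeR adjusted p = 0.00126), and 1 was lower, RRM2. With JQ-1 all 13 were called, 5 higher and 8 lower than in untreated cells, where 35.7% of all genes were higher and 37.6% lower. JQ-1 cells had more SESN3, another sestrin (38.1 ± 0.895 CPM with JQ-1 and 17.0 ± 1.01 CPM in untreated cells; log2 fold change 1.16, edgeR adjusted p = 2.4e-13), while SESN1 fell by 0.36. TP53INP2, a relative of TP53INP1, was higher as well (0.72, edgeR adjusted p = 1.44e-12). ISG20, an exonuclease related to AEN, fell to 3.75 ± 0.744 CPM with JQ-1, against 21.5 ± 1.48 CPM in untreated cells (-2.53, edgeR adjusted p = 8.73e-16).

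The genes most like the best known members were ranked by Pearson correlation of log2 CPM among genes of at least 10 CPM on average, as a description; libraries share their GC slope and, in groups, their compound. Over 21 libraries CDKN1A was most like PHLDA3 (0.948), BAX (0.939) and MRGBP (0.93), MDM2 was most like GOLT1B (0.98), GRPEL2 (0.968) and FAM60A (0.968), and MDM4 was most like PERP (0.865), ZNF695 (0.859) and SDE2 (0.855). Over the 18 libraries without JQ-1, the leading genes were CMTM7 (0.959), VASP (0.942) and HYI (0.939) for CDKN1A. For MDM2 they were PTP4A1 (0.954), GOLT1B (0.949) and ATP6V1A (0.947), and for MDM4 they were GNE (0.916), MDM2 (0.914) and ATL3 (0.901).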
